A study of Rattus norvegicus with 6 samples.

Results

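The genes for the proteins of the cytosolic ribosome were described in the retina of rats made diabetic with streptozotocin and of vehicle-treated rats. Members were the protein-coding entries of the deposited table whose symbol has the form Rpl or Rps followed by a number, with the usual paralog endings (a, x, l, al, l1), together with Rplp0, Rplp1, Rplp2 and Rpsa. The rule took 89 of 34170 entries, 57 of the large subunit and 32 of the small subunit, and used no measured value. These 89 entries carried 83 distinct symbols, because Rpl21 had 4 entries and Rpl7a, Rpl32 and Rps27a had more than 1 each. Entries of mitochondrial ribosomal proteins, whose symbols begin with Mrp, were not members.

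Poly-A RNA was sequenced from the retina of 6 male Sprague-Dawley rats of about 100 g, 3 per group. Diabetic rats had received streptozotocin, a toxin of the insulin-producing beta cells, at 60 mg/kg by intraperitoneal injection on 5 days after a 12 h fast. Controls had received citrate buffer on the same schedule. Rats counted as diabetic when fasting blood glucose passed 16.7 mmol/L in a test 1 week after the final injection. Each library's label gives a body weight of its own, between 103.4 and 110.5 g for the controls and between 100.4 and 104 g for the diabetic rats. No transgene or other genotype is named in the labels, and neither the age of the rats nor the time of tissue collection is given in the sources used here.

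Ribosomes translate messenger RNA into protein. The small subunit binds the messenger RNA and reads its codons, and the large subunit joins the amino acids, holds the exit tunnel of the new chain and carries a flexible stalk that recruits translation factors. In animals the genes for these proteins are expressed at similar, high levels in nearly all cells, and their transcripts typically begin with a run of pyrimidines, the terminal oligopyrimidine (TOP) tract, through which the TOR kinase and the RNA-binding protein Larp1 control their translation. In the retina, photoreceptors renew large amounts of outer segment protein, which makes protein synthesis a steady demand of the tissue.

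A sequence feature for which these genes are known is shown first, at the annotated transcription start. Of the 83 symbols, 63 had a promoter in the RefSeq table for build GRCr8. Windows of 15 bases before to 15 bases after the edge of the start site are printed 5′ to 3′ along the gene's strand, and the capitals mark the longest run of C or T that opens with C within 5 bases of the start. Pyrimidines of the same run that lie farther upstream stay in lower case. The first 6 windows belong to highly expressed members with a tract directly at the start.
Rplp1: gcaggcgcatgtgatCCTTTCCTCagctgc
Rpl10: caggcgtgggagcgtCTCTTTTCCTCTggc
Rps15: cgctgacaccgCTTCCTTTTCCCagcagcc
Rps27: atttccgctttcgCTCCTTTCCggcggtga
Rpl34: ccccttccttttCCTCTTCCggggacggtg
Rpl35: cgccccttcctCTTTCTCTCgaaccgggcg
These lie at chr8:71290858-71290887, minus strand for Rplp1, at chrX:157205835-157205864, plus strand for Rpl10, at chr7:10068101-10068130, minus strand for Rps15, at chr2:177964592-177964621, minus strand for Rps27, at chr2:221962269-221962298, minus strand for Rpl34 and at chr3:43165907-43165936, minus strand for Rpl35. The annotated first transcribed base is the 16th of each window, and in these 6 it is a C followed by at least 4 bases that are each C or T. For contrast, Rps21 and Rps23 have a run that spans the start but do not open with C there, while the run of Rpl13a, most of it upstream of the searched bases, ends before the start, and Rpl36 has only a short run.
Rps21: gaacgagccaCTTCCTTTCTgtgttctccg
Rps23: tgggtccttcctgCCTCTCTTCTCTCTTTC
Rpl13a: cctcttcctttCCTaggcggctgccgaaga
Rpl36: ctgtccggccgCCatcggaaagctgcaggt
These windows lie at chr3:187724023-187724052, plus strand for Rps21, at chr2:23814502-23814531, plus strand for Rps23, at chr1:104748899-104748928, minus strand for Rpl13a and at chr9:1533765-1533794, plus strand for Rpl36. On the gene's strand, with C as the annotated first base and at least 4 following pyrimidines, the tract was found in 21 of the 63 members (33.3%), against 881 of all 33469 promoters of the table (2.63%). It was present in 16 of 41 large subunit genes (39.0%) and in 5 of 22 small subunit genes (22.7%). A looser search, added after the first result was seen, asked for a run of at least 6 pyrimidines that opens with C within 5 bases of the start, and found it in 32 of 63 members (50.8%) and in 9.91% of all promoters. For 5 of the 63 symbols (Rpl35a, Rpl36a, Rpl38, Rpl9 and Rps18) RefSeq places the promoter on a chromosome on which the deposited table has no entry of that symbol. The annotated start need not be the start used in the retina, and a match is a description of these letters only.

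Fragments per library, rebuilt from the deposited FPKM (fragments per kilobase of gene and million-fragment library), summed to 12417686 to 16941864 in the controls and to 16277864 to 19115426 in the diabetic rats, so depth overlapped but was lowest in controls 2 and 3. Of 34170 genes, 10752 were listed at 0 in every library, and 16363 had a mean of at least 0.5 FPKM and were tested. The retina label was checked against fixed marker genes. The summed FPKM of 7 rod genes was 34627 to 38804 in the controls and 28776 to 33282 in the diabetic rats, without overlap. The 5 lens genes ranged from 6.50 to 260 FPKM in the controls and from 4.97 to 33.9 FPKM in the diabetic rats, the 5 pigment epithelium genes from 34.8 to 77.7 and from 34.0 to 82.2 FPKM, and the 4 microglia genes from 10.2 to 17.6 and from 7.76 to 10.8 FPKM. The measured blood and endothelium genes each summed to at most 0.44 FPKM in every library, and Cldn5, a defining endothelial gene, was listed at 0. The part of depth or of these cell types in the results that follow was not tested.

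Of the 89 members, 83 passed the filter of a mean of 0.5 FPKM, 51 of the large and 32 of the small subunit. Their levels spanned 3 orders of size. A mean above 100 FPKM was seen for 56 members, a mean of 10 to 100 FPKM for 19 and a mean of 0.5 to 10 FPKM for 8. The median FPKM of the tested members was 163, 198 and 171 in controls 1 to 3 and 138, 117 and 131 in diabetic rats 1 to 3, and every diabetic library lay under every control library. As a share of all rebuilt fragments, the members took 1.27%, 1.45% and 1.07% in controls 1 to 3 and 1.07%, 0.985% and 1.01% in diabetic rats 1 to 3. Control 3 and diabetic rat 1 were almost equal in that share.

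**Figure D1:**
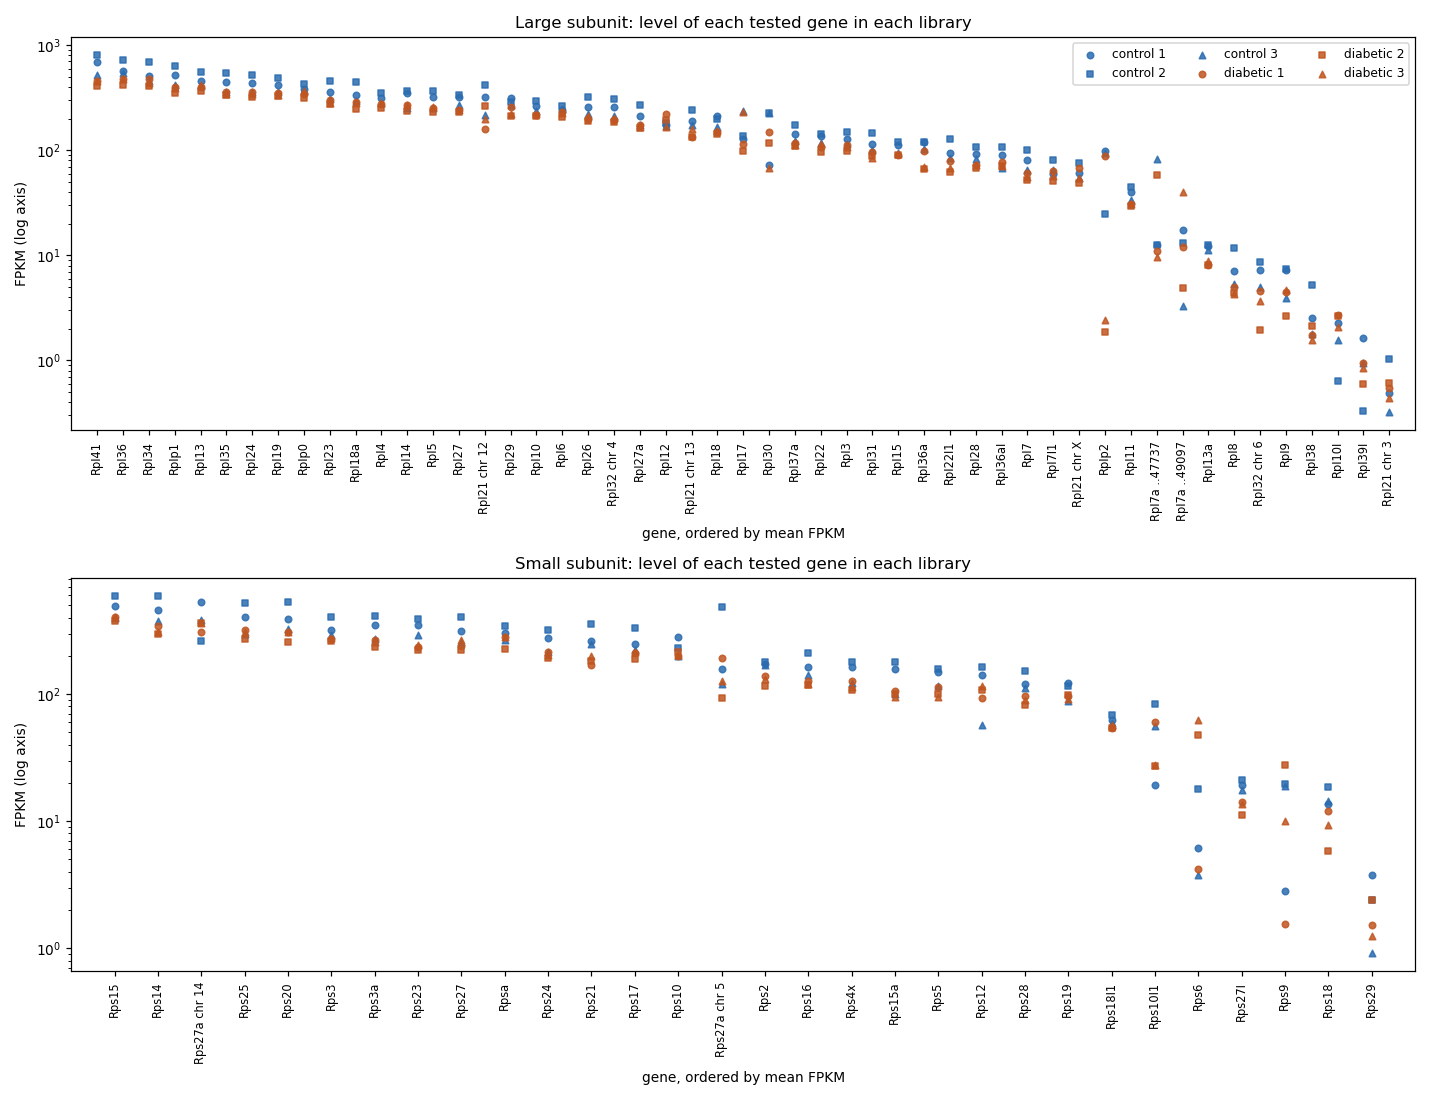
Level of 81 of the 83 tested members in each of the 6 libraries, as FPKM on a log axis, with large subunit genes above and small subunit genes below and genes ordered by mean. Blue symbols are controls and orange symbols diabetic rats, with the symbol shape giving the replicate. Most genes keep the 6 libraries within a narrow band, while Rplp2, Rps6, Rps9 and both Rpl7a entries spread widely.

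The highest member was Rpl41 (chr7:2972900-2973977, minus strand, in the coordinates of the deposited table, of a build not given in the sources used here), which encodes a very short basic peptide of the large subunit. It measured 687, 806 and 522 FPKM in controls 1 to 3 and 455, 407 and 457.9 FPKM in diabetic rats 1 to 3. All 3 diabetic values lay under all 3 control values, with a log2 difference of -0.59 (SE 0.16, limma adjusted p = 0.147). Rpl36, a large subunit protein, followed with 569.5, 723 and 541 FPKM in controls 1 to 3 and 474, 417 and 478 FPKM in diabetic rats 1 to 3. It too did not overlap between groups and had a log2 difference of -0.41 (SE 0.13, limma adjusted p = 0.176). Rpl34, another large subunit protein, measured 509.6, 688 and 457.7 FPKM in controls 1 to 3 and 474, 406 and 434 FPKM in diabetic rats 1 to 3. Here diabetic rat 1 lay above control 3, so the groups overlapped, and the log2 difference was -0.31 (SE 0.16, limma adjusted p = 0.32).

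Rps15, a protein of the head of the small subunit near the decoding site, measured 496, 589 and 398 FPKM in controls 1 to 3 and 402, 375 and 405 FPKM in diabetic rats 1 to 3. Control 3 lay inside the diabetic range, and the log2 difference was -0.31 (SE 0.14, limma adjusted p = 0.287). Rpl13 measured 453, 550.3 and 407 FPKM in controls 1 to 3 and 402, 367 and 418 FPKM in diabetic rats 1 to 3, and Rpl35, which sits near the exit tunnel, measured 442, 541 and 359 FPKM in controls 1 to 3 and 362, 339 and 345 FPKM in diabetic rats 1 to 3. In both, control 3 lay within the range of the diabetic rats, and the log2 differences were -0.24 and -0.34. Under quantile normalization the difference of Rpl13 turned to 0.00.

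Most ribosomal protein genes had lower values in the diabetic retinas, and none passed the adjusted test on its own. Of 83 tested members, 79 had a log2 difference under 0, where 49.9% of all tested genes did. The median difference over members was -0.37, which is a change of -22.4%, with a middle range from -0.49 to -0.25, while the median over all tested genes was 0.00. By limma's moderated test, 0 members passed an adjusted p of 0.05, and 0.0% of all tested genes did. The smallest adjusted p among members was 0.127. At an unadjusted p under 0.05, 48 members were lower, or 57.8% of them, where 10.7% of all tested genes were lower, and 0 members were higher, where 9.15% of all genes were. In 47 members all 3 diabetic values lay under all 3 control values (13.6% of all tested genes), and in 0 members all lay above (12.7% of all tested genes). Most members moved together over the 6 libraries, so these counts are not counts of independent results. With voom, a weighted fit on the rebuilt fragments, 0 members passed the adjusted threshold and 47 were lower at an unadjusted p under 0.05, where 7.35% of all genes were lower. The summed rod genes given above were also lower in the diabetic rats without overlap, and their part in these counts was not tested. In whole-tissue RNA, fewer cells that express these genes and less of their RNA per cell cannot be told apart.

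The counts depended on the scaling and on single libraries. Rescaling to TPM, which sets each library to the same sum, moved the median of all genes to 0.13, the members to -0.23 and so the members relative to all genes to -0.36, and left 24 members lower at an unadjusted p under 0.05, with 4.23% of all genes lower on that scale. The lower and higher calls over all genes were 692 and 3009 on that scale, against 1757 and 1498 as deposited and 1203 and 2210 with voom. Quantile normalization left 22 members lower and 1 higher, with a median of -0.17 and 8.71% of all genes lower. Removing each library's trend on gene length left 32 lower and 1 higher, with a median of -0.24 and 9.20% of all genes lower. Without control 1, control 2 or control 3, the count of members lower at an unadjusted p under 0.05 was 29, 24 and 64. The share of all genes lower was 8.65%, 6.997% and 12.98% in the same order. Without diabetic rat 1, 2 or 3, the count was 33, 20 and 29, and the share of all genes lower was 9.22%, 6.997% and 8.51%. With any of these libraries left out the adjusted test still passed 0 members. Leaving out control 2 brought the members' median to -0.26, and leaving out control 3 brought it to -0.48.

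**Figure D2:**
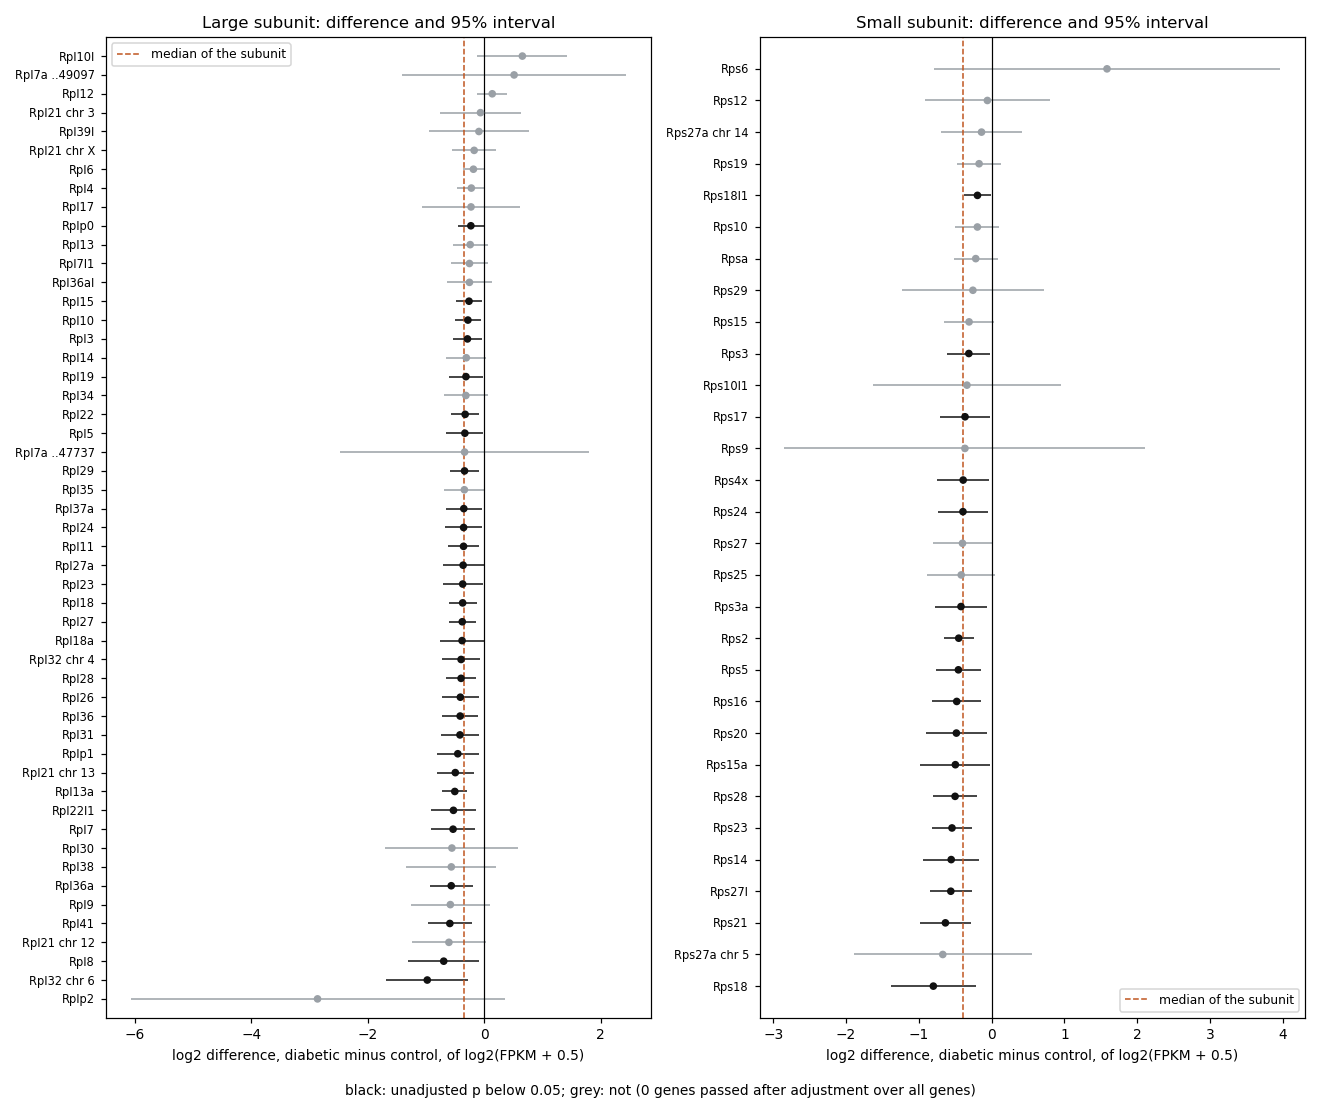
Log2 difference, diabetic minus control, of log2(FPKM + 0.5) with its 95% interval for the 51 tested large subunit genes (left) and 30 of the 32 tested small subunit genes (right), on axes of different width. Black marks an unadjusted p under 0.05 and the dashed line the median over all tested genes of the subunit, -0.35 for the large and -0.40 for the small. Almost all points lie left of 0, and the widest intervals belong to Rplp2, Rps9, Rps6 and the Rpl7a entries.

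The libraries were not equal within a group. Each library's median over the 83 members, as log2 level minus the mean of the controls, was 0.00, 0.26 and -0.23 in controls 1 to 3 and -0.31, -0.43 and -0.34 in diabetic rats 1 to 3. Control 2 was the highest library for 65 of 83 members, control 3 the lowest control for 71, and diabetic rat 2 the lowest library for 57. The spread among controls was therefore wider than that among diabetic rats, and the gap from control 3 to diabetic rat 1 was small. On the TPM scale the 6 medians were 0.02, 0.20 and -0.19 against -0.16, -0.25 and -0.26, and control 3 then lay under diabetic rat 1. Quantile normalization gave -0.01, 0.17 and -0.14 against -0.11, -0.20 and -0.20, with the same overlap. With each library's trend on gene length removed, the medians were -0.01, 0.19 and -0.17 against -0.22, -0.30 and -0.23, and the groups did not overlap.

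**Figure D3:**
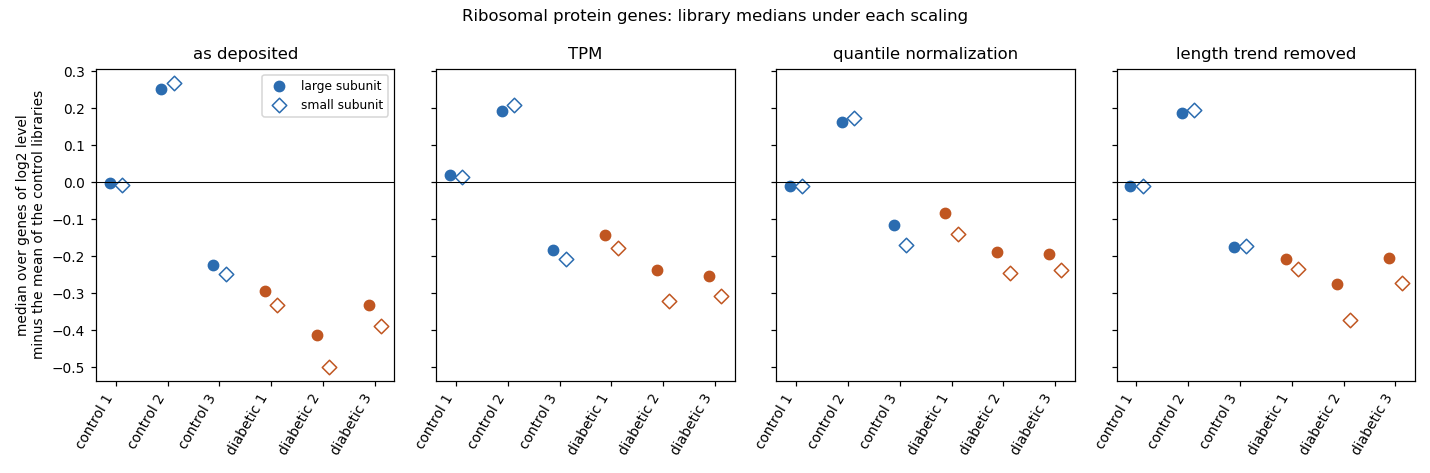
Median over large (filled circles) and small (open diamonds) subunit genes of the log2 level in each library minus the mean of the controls, under 4 scalings, with controls in blue and diabetic rats in orange. Control 2 stands highest in every panel, and control 3 lies close to the diabetic libraries.

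Among the large subunit genes, the smallest unadjusted p belonged to Rpl13a (chr1:101120325-101123402, minus strand), whose protein is also known for a role in silencing inflammatory transcripts. It measured 12.3, 12.5 and 11.3 FPKM in controls 1 to 3 and 8.10, 8.13 and 8.75 FPKM in diabetic rats 1 to 3, or 12.0 ± 0.595 against 8.33 ± 0.368 FPKM (SD, n = 3 each). The groups did not overlap, and the spread inside each was narrow. Its log2 difference was -0.50 (95% interval -0.72 to -0.29, limma adjusted p = 0.127). The same protein is named by 2 further entries, and the values here cover the reads given to this entry alone. Rpl27 measured 319, 337 and 271 FPKM in controls 1 to 3 and 242, 229.7 and 239 FPKM in diabetic rats 1 to 3, without overlap and with a log2 difference of -0.38 (SE 0.10, limma adjusted p = 0.144).

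The stalk proteins bind translation factors and were read as a set. Rplp1 measured 519, 638 and 423 FPKM in controls 1 to 3 and 397, 352 and 389.9 FPKM in diabetic rats 1 to 3, with no overlap and a log2 difference of -0.45 (SE 0.15, limma adjusted p = 0.187). Rplp0, which anchors the stalk to the subunit, measured 387, 431 and 375 FPKM in controls 1 to 3 and 340.1, 314 and 364 FPKM in diabetic rats 1 to 3, with no overlap and a difference of -0.23 (SE 0.10, limma adjusted p = 0.249). Their partner Rplp2 (chr1:214428526-214430515, plus strand) measured 98.5, 24.95 and 94.4 FPKM in controls 1 to 3 and 89.2, 1.87 and 2.43 FPKM in diabetic rats 1 to 3. Diabetic rats 2 and 3 stood far under the other 4 libraries and diabetic rat 1 lay inside the control range, so the groups overlapped and the difference of -2.86 had a 95% interval of -6.07 to 0.35. Rpl5 and Rpl11, which with 5S RNA form the particle that can bind Mdm2, had differences of -0.33 (SE 0.14) and -0.35 (SE 0.11). Rpl11 did not overlap between groups, and in Rpl5 control 3 lay under diabetic rat 3.

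Among the small subunit genes, Rps2 (chr10:14088319-14089979, plus strand), near the messenger RNA entry site, measured 173, 180.3 and 171 FPKM in controls 1 to 3 and 138, 115 and 131 FPKM in diabetic rats 1 to 3. The 3 controls were almost equal and all above the diabetic rats, with a log2 difference of -0.45 (SE 0.09, limma adjusted p = 0.128). Rps23, which reaches into the decoding centre, measured 349.8, 391 and 291 FPKM in controls 1 to 3 and 235, 223 and 244 FPKM in diabetic rats 1 to 3. Its groups were also apart, with a difference of -0.54 (SE 0.12, limma adjusted p = 0.129).

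Rps21 measured 262, 355 and 249.6 FPKM in controls 1 to 3 and 168, 183 and 201 FPKM in diabetic rats 1 to 3, with the 3 diabetic rats under the lowest control and a difference of -0.63 (SE 0.15, limma adjusted p = 0.131). Rps28 measured 120.5, 152 and 112 FPKM in controls 1 to 3 and 97.0, 81.9 and 90.7 FPKM in diabetic rats 1 to 3, again without overlap and with a difference of -0.50 (SE 0.13, limma adjusted p = 0.139). Rps27l (chr8:72741155-72746090, plus strand), a paralog of Rps27 known as a target of p53, measured 19.3, 21.3 and 17.5 FPKM in controls 1 to 3 and 14.3, 11.2 and 13.5 FPKM in diabetic rats 1 to 3. It stood apart between groups as well, with a difference of -0.56 (SE 0.12, limma adjusted p = 0.129). None of these differences passed the adjusted threshold.

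The medians of the large and small subunit genes were close, a comparison given without a test. The median log2 difference was -0.35 over 51 large subunit genes and -0.40 over 32 small subunit genes. A log2 difference under 0 was found in 48 of 51 and in 31 of 32, where 49.9% of all tested genes had one. Lower at an unadjusted p under 0.05 were 30 of 51 and 18 of 32, against 10.7% of all tested genes. All 3 diabetic values lay under all 3 control values in 31 of 51 and in 16 of 32, against 13.6% of all tested genes. The large subunit median minus the small subunit median was 0.01, -0.02 and 0.02 in controls 1 to 3 and 0.04, 0.09 and 0.06 in diabetic rats 1 to 3. The diabetic values were all above the control values. The amounts were far smaller than the spread of either subunit across libraries. Both subunits share most of that spread, so it does not measure the error of this contrast. The difference of the 2 medians, 0.04, became -0.01 without control 2.

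A log2 difference above 0 was found in 4 tested members. Rps6 (chr5:105209846-105212173, minus strand), the small subunit protein that S6 kinase phosphorylates, measured 6.17, 17.9 and 3.80 FPKM in controls 1 to 3 and 4.18, 48.1 and 62.3 FPKM in diabetic rats 1 to 3. Diabetic rats 2 and 3 were high and diabetic rat 1 was among the lowest, so the groups overlapped, and the difference of 1.58 had a 95% interval of -0.80 to 3.97. Rpl12, at the base of the stalk, measured 176, 182 and 172 FPKM in controls 1 to 3 and 222, 196 and 168 FPKM in diabetic rats 1 to 3, with diabetic rat 3 lowest of all and a difference of 0.14 (SE 0.11). Rpl10l, an intronless paralog best known from testis, measured 2.29, 0.644 and 1.58 FPKM in controls 1 to 3 and 2.70, 2.67 and 2.06 FPKM in diabetic rats 1 to 3, with control 1 inside the diabetic range and a difference of 0.66 (SE 0.33).

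The fourth was an Rpl7a entry. The pair of Rpl7a entries lies on chromosome 3, each with a gene model of 798 bases. The one at chr3:4867233-4869656, plus strand measured 17.3, 13.3 and 3.32 FPKM in controls 1 to 3 and 12.0, 4.88 and 39.9 FPKM in diabetic rats 1 to 3, and the one at chr3:5459160-5461583, plus strand measured 12.4, 12.5 and 82.9 FPKM in controls 1 to 3 and 11.1, 58.6 and 9.68 FPKM in diabetic rats 1 to 3. Control 3 was lowest for the first and highest for the second, and the differences of 0.51 (SE 0.82) and -0.34 (SE 0.91) were well within the spread of each group. Each turns its sign when control 3 or diabetic rat 3 is left out, to -0.16 and -0.25 for the first and to 0.56 and 0.12 for the second, and that of the second also without diabetic rat 1, to 0.02.

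Over 8-fold variation inside a group was found in 4 tested members, Rps6, Rplp2, Rps9 and the Rpl7a entry at chr3:4867233-4869656, plus strand, or 4.82% of members, where 1.72% of all tested genes varied so. With all entries of a protein summed, as described below, 2 of 73 proteins varied so, S6 and S9. Summed L7a and P2 did not, with a highest fold inside a group of 1.94 and 2.70. Rps9 (chr1:64018125-64090021, minus strand), a small subunit protein, measured 2.82, 19.8 and 18.8 FPKM in controls 1 to 3 and 1.54, 27.8 and 9.98 FPKM in diabetic rats 1 to 3, with diabetic rat 1 lowest and diabetic rat 2 highest. Its difference of -0.37 (SE 1.05) turned to 0.08, 0.04 and 0.66 without control 2, control 3 and diabetic rat 1. Its gene model overlaps other expressed genes, Tsen34l1 and Mboat7l1, and the kit is not named as one that marks strand, so reads of these genes may be mixed. Without the 4 members, 77 of 79 had a difference under 0, with a median of -0.37. Of these 79, 48 were lower at an unadjusted p under 0.05, where 10.7% of all tested genes were.

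Paralog pairs were compared by the log2 ratio of the paralog to its partner in each library, for the 7 of 10 pairs in which both passed the filter. With 3 against 3 libraries an exact two-sided permutation test has 20 divisions and cannot go under p = 0.1. Rpl10l against Rpl10 had ratios of -6.56, -8.01 and -6.84 in the controls and -6.10, -6.07 and -6.44 in the diabetic rats. This was the only pair of the 7 without overlap, with a diabetic minus control difference of 0.94 (exact permutation p = 0.1, adjusted over 7 pairs p = 0.28). The ratios rest on few fragments, as Rpl10l held 25, 5 and 13 in controls 1 to 3 and 33, 29 and 25 in diabetic rats 1 to 3. Rpl10 itself measured 262, 295 and 237 FPKM in controls 1 to 3 and 218, 213 and 221 FPKM in diabetic rats 1 to 3, without overlap and far above its paralog in every library.

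Rpl22l1 against Rpl22 had ratios of -0.54, -0.18 and -0.50 in the controls and -0.44, -0.63 and -0.74 in the diabetic rats, with overlap and a difference of -0.20 (exact permutation p = 0.3, adjusted over 7 pairs p = 0.35). Both members of that pair were lower, Rpl22l1 with a log2 difference of -0.53 (SE 0.17) and Rpl22, an RNA-binding protein that is known to regulate its paralog's transcript, with -0.33 (SE 0.10). Rps27l against Rps27 had ratios of -3.99, -4.23 and -3.83 in the controls and -4.02, -4.25 and -4.26 in the diabetic rats, with a difference of -0.16 (exact permutation p = 0.2, adjusted over 7 pairs p = 0.28). Rps27l was far the lower of the pair in every library, and the groups overlapped.

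Rpl36al against Rpl36a had ratios of -0.42, -0.15 and -0.62 in the controls and -0.36, 0.08 and 0.04 in the diabetic rats, with overlap and a difference of 0.31 (exact permutation p = 0.2, adjusted over 7 pairs p = 0.28). Diabetic rats 2 and 3 were the only libraries in which the entry named Rpl36al was the higher of the pair. RefSeq places the Rpl36a promoter on chromosome X, the chromosome of the Rpl36al entry, while the Rpl36a entry lies on chromosome 18. The symbols therefore do not settle which entry of this pair is the parent gene. Rpl7l1, thought to act in ribosome assembly, against Rpl7 had ratios of -0.44, -0.32 and 0.01 in the controls and 0.07, -0.02 and 0.03 in the diabetic rats, with a difference of 0.28 (exact permutation p = 0.2, adjusted over 7 pairs p = 0.28). Rps18l1, at chromosome 20 and with introns, stood above Rps18, an intronless entry on chromosome 10, with ratios of 2.14, 1.87 and 1.99 in the controls and 2.14, 3.12 and 2.56 in the diabetic rats and a difference of 0.61 (exact permutation p = 0.2, adjusted over 7 pairs p = 0.28). RefSeq places the Rps18 promoter on chromosome 20, the chromosome of the Rps18l1 entry, so the symbols do not settle which of this pair is the parent gene. Rps10l1 against Rps10 varied most within a group, with ratios of -3.83, -1.45 and -1.82 in the controls and -1.72, -2.95 and -2.86 in the diabetic rats and a difference of -0.14 (exact permutation p = 0.9, adjusted over 7 pairs p = 0.9). No pair passed the adjusted threshold, which 3 against 3 libraries cannot reach in this test. The ratio difference of Rps10l1 against Rps10 turned to 0.31, 0.13, 0.08 and 0.03 without control 2, control 3, diabetic rat 2 and diabetic rat 3.

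**Figure D4:**
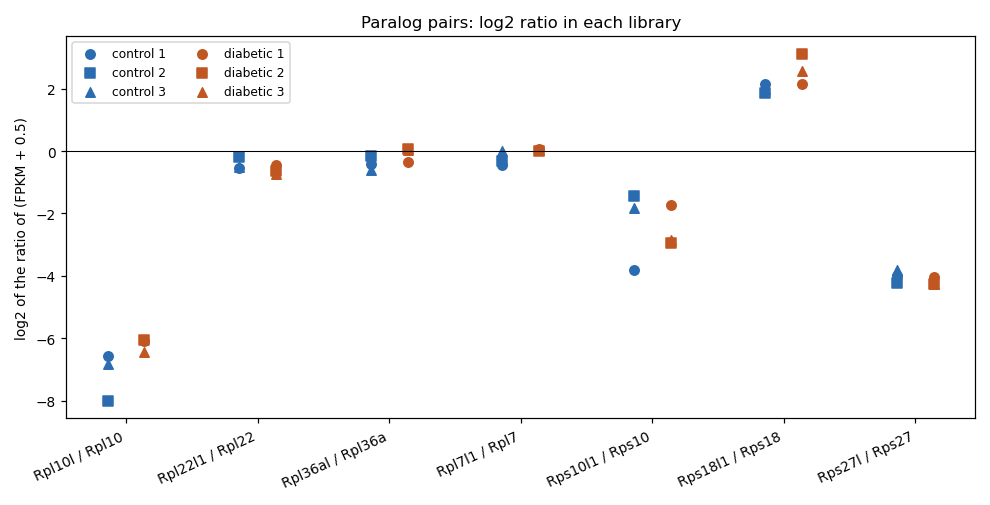
Log2 of the ratio of (FPKM + 0.5) of each paralog to its partner in each library, for the 7 compared pairs, with controls in blue to the left, diabetic rats in orange to the right and the replicate given by the symbol shape. Only Rpl10l over Rpl10 shows groups that do not overlap, and Rps10l1 over Rps10 and Rpl10l over Rpl10 show the widest spread among controls.

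The 6 members under the filter were Rpl3l, Rpl30l1, Rpl35a, Rpl23a, Rpl10a and Rpl39. Rpl3l, a paralog of Rpl3 known from muscle, measured 0.392, 0.184 and 0.232 FPKM in controls 1 to 3 and 0.273, 0.175 and 0.157 FPKM in diabetic rats 1 to 3. Rpl30l1 was listed at 0 in 4 libraries. The entries named Rpl35a, Rpl23a, Rpl10a and Rpl39 were listed at 0 in all 6. These are genes for proteins that every ribosome holds, and of these 4 only that the entries are listed at 0 can be said. Other entries of the table, most with a placeholder symbol, name ribosomal proteins in their description. With each paralog counted under its partner's protein, 109 such entries were found for 51 of 73 ribosomal proteins.

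For several proteins most fragments lay in such other entries. Rpl9 at chr3:4282236-4282814, plus strand is intronless and held 71, 52 and 29 fragments in controls 1 to 3 and 49, 26 and 51 in diabetic rats 1 to 3, while LOC100360449, described as the same protein, held 5344, 4460 and 3272 fragments in controls 1 to 3 and 4670, 3609 and 4420 in diabetic rats 1 to 3. Rps29, another intronless entry, held 11, 5 and 2 fragments in controls 1 to 3 and 5, 7 and 4 in diabetic rats 1 to 3, and LOC108350501, described as the same protein, held 3418, 3026 and 2080 fragments in controls 1 to 3 and 2849, 2405 and 2758 in diabetic rats 1 to 3. For Rpl39, listed at 0, LOC103690821 held 825, 644 and 516 fragments in controls 1 to 3 and 700, 625 and 712 in diabetic rats 1 to 3. In each of these 3 proteins the entry with the member's symbol is the minor one.

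In other proteins the share of each entry varied from library to library. Rpl30 held 566, 1272 and 1351 fragments in controls 1 to 3 and 1300, 912 and 596 in diabetic rats 1 to 3, and LOC100362027 held 2488, 1408 and 434 fragments in controls 1 to 3 and 1420, 1084 and 2015 in diabetic rats 1 to 3. Control 3 was lowest for the second entry and highest for the first. Rps27a on chromosome 14 held 4246, 1503 and 2333 fragments in controls 1 to 3 and 2760, 2881 and 3236 in diabetic rats 1 to 3, and the intronless Rps27a entry on chromosome 5 held 1471, 3205 and 832 fragments in controls 1 to 3 and 1995, 856 and 1308 in diabetic rats 1 to 3, with control 2 lowest in the first and highest in the second. Such entries can share near-identical sequence, with the authors' way of splitting reads between them not given in the sources used here. Single entries of these proteins are therefore uncertain.

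**Figure D5:**
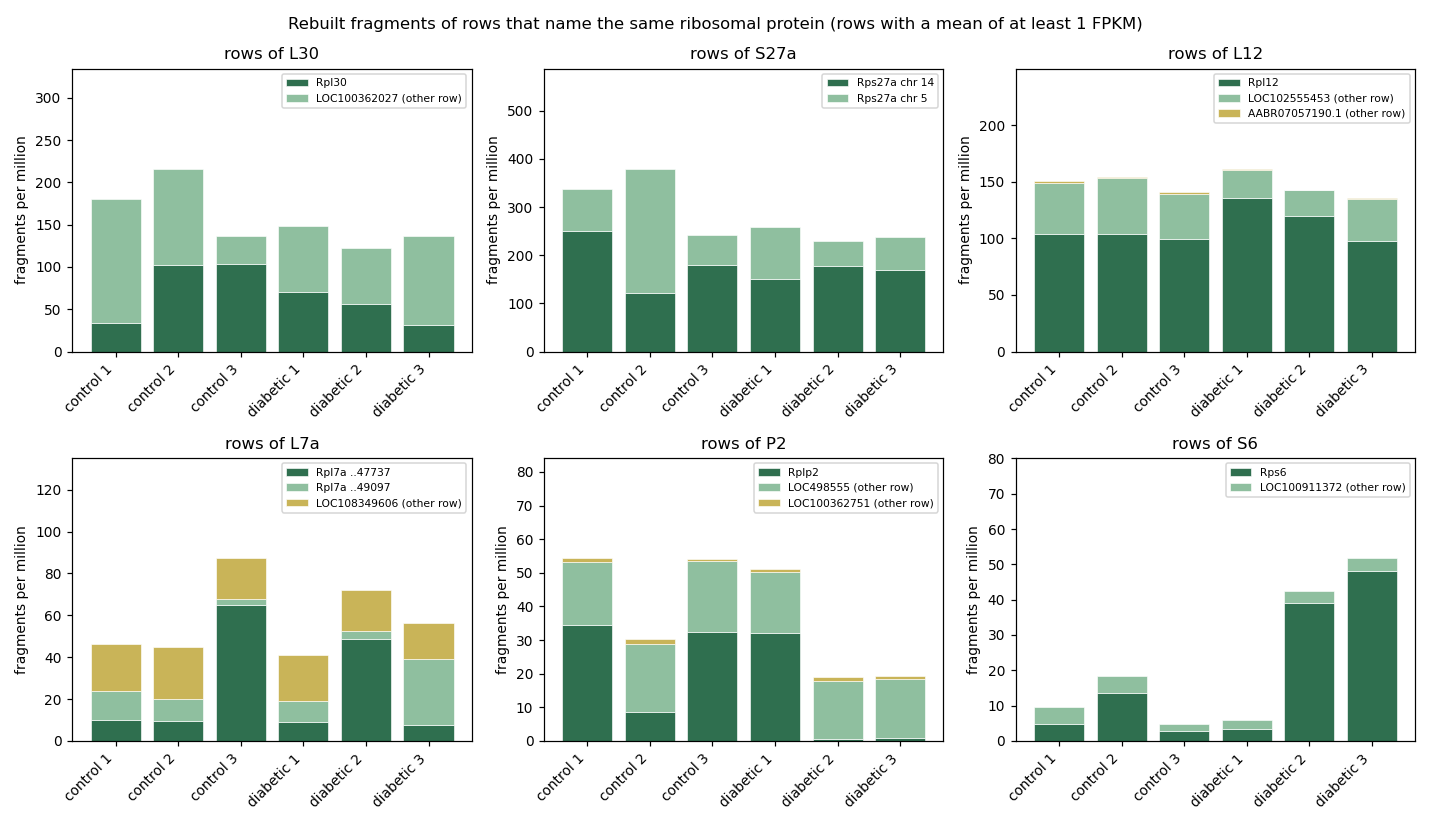
Rebuilt fragments-per-million (FPM) in each library for 6 ribosomal proteins, stacked over the entries of the table that name the same protein and have a mean of at least 1 FPKM. In L30 and S27a the parts shift between libraries more than the whole does, while P2 and S6 differ between libraries in the entry of the member itself.

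Summing all entries of a protein, an alternative added after the data were seen, gave 73 proteins from 198 entries. Each sum also holds the paralogs, such as Rpl22l1 with Rpl22 and Rpl7l1 with Rpl7. It is therefore not always a sum over copies of 1 gene and does not separate paralogs from their partners. Of these, 72 had a difference under 0, 54 were lower at an unadjusted p under 0.05 (10.7% of genes in that fit) and 0 passed the adjusted test in limma, with a median of -0.38. Summed L30 was 180.3, 216 and 137 FPM in controls 1 to 3 and 148, 123 and 137 FPM in diabetic rats 1 to 3 (FPM, fragments-per-million of all rebuilt fragments), with a log2 difference of -0.42 (SE 0.17) where the single Rpl30 entry had -0.55 (SE 0.49). Summed S27a was 338, 379 and 243 FPM in controls 1 to 3 and 259.7, 229.6 and 238 FPM in diabetic rats 1 to 3, with a difference of -0.43 (SE 0.17). In both the error of the sum was under that of the single entries. Summing did not bring every protein to a high level. Over the 6 libraries the sums ran from 5.86 to 15.3 FPM for L10a and from 3.60 to 12.9 FPM for L23a. They ran from 2.09 to 9.68 FPM for L35a and from 1.07 to 3.14 FPM for L38, where L9 ran from 225 to 367 FPM.

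Summed L12 had a difference of -0.07, so the sign of Rpl12 turned. Its other main entry, LOC102555453, held 768, 615 and 524 fragments in controls 1 to 3 and 463, 373 and 710 in diabetic rats 1 to 3. S6 was the only protein with a summed difference above 0, at 9.50, 18.5 and 4.76 FPM in controls 1 to 3 and 6.001, 42.3 and 51.7 FPM in diabetic rats 1 to 3. Its other entry, LOC100911372, held 79, 61 and 24 fragments in controls 1 to 3 and 48, 54 and 70 in diabetic rats 1 to 3. Summed P2 was 54.3, 30.3 and 54.1 FPM in controls 1 to 3 and 51.2, 18.9 and 19.3 FPM in diabetic rats 1 to 3, with diabetic rats 2 and 3 still lowest. The largest other P2 entry, LOC498555, held 316, 253 and 275 fragments in controls 1 to 3 and 329, 277 and 335 in diabetic rats 1 to 3 with no such low values in diabetic rats 2 and 3. Summed L7a was 46.4, 44.9 and 87.2 FPM in controls 1 to 3 and 41.0, 72.3 and 56.3 FPM in diabetic rats 1 to 3. Its difference was -0.09 (SE 0.30).

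Several structural features were shared beyond the symbol. The median gene model of the 83 tested members was 630 bases, against 2337 bases for the 13406 other protein-coding genes tested. Members at or under 630 bases had a median log2 difference of -0.40 and longer members -0.34. That split lies within the members and does not set them against other genes of like length. With each library's trend on gene length removed, the median over all members was -0.24, against -0.37 as deposited. An intronless model, whose span equals its length, was found in 12 of 83 (14.5%), against 5.03% of the other genes. The 12 intronless members had a median of -0.52, with 3 lower at an unadjusted p under 0.05. The 71 with introns had a median of -0.37, with 45 lower at that threshold, where 10.7% of all tested genes were lower.

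Many ribosomal protein introns hold genes for small nucleolar RNAs, which guide the modification of ribosomal RNA. An annotated small nucleolar RNA on the same strand lay inside 25 of 83 tested members (30.1%), against 211 of 13406 other genes (1.57%). Rpl4 held 6 and Rpl13a held 4. The 25 hosts had a median difference of -0.34 and the 58 other members -0.37. Members lay on 20 chromosomes or scaffolds, with 14 of 83 on chromosome 1 and 4 on chromosome X. Among the 56 members above 100 FPKM, 55 had a difference under 0.

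Members were also ranked by how closely their log2 values over the 6 libraries followed the median profile of the other members. Rplp1 (r = 1.00), Rpl7 (r = 0.997) and Rpl24 (r = 0.997) were the closest, and Rpl10l (r = -0.81), Rpl7a (ENSRNOG00000047737) (r = -0.38) and Rpl12 (r = -0.27) the farthest. These values describe 6 libraries that share depth and scaling with the profile itself. Rpl24 measured 437, 516 and 362 FPKM in controls 1 to 3 and 356, 322 and 341 FPKM in diabetic rats 1 to 3, which shows the profile plainly, with control 2 highest and diabetic rat 2 lowest.

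Other genes of the ribosome and its supply were read from lists. Fau and Rack1 encode ribosome components that carry no Rpl or Rps symbol. Fau, which encodes a small subunit protein fused to a ubiquitin-like domain, measured 345, 423 and 320.4 FPKM in controls 1 to 3 and 314, 202 and 307 FPKM in diabetic rats 1 to 3, without overlap and with a log2 difference of -0.42 (SE 0.19). Rack1, a scaffold on the small subunit, measured 121, 134 and 99.3 FPKM in controls 1 to 3 and 102, 94.3 and 103 FPKM in diabetic rats 1 to 3, with control 3 under diabetic rats 1 and 3 and a difference of -0.23 (SE 0.12).

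Of 16 tested non-ribosomal genes known for TOP messenger RNA, 13 had a difference under 0 and 9 were lower at an unadjusted p under 0.05, with a median of -0.23. Tpt1, the translationally controlled tumour protein, had -0.45 (SE 0.12), Btf3, which binds new chains at the ribosome, -0.27 (SE 0.08), and the initiation factor subunit Eif3f -0.33 (SE 0.10). Of 33 ribosome biogenesis genes, 24 were under 0, 10 were lower and 1 higher at that threshold, with a median of -0.16. Eif6, which keeps the subunits apart, had -0.43 (SE 0.09), the nucleolar protein Gnl3 -0.31 (SE 0.07) and the methyltransferase Fbl -0.29 (SE 0.08). Of 11 RNA polymerase I genes, 6 were under 0 and 2 lower, with a median of -0.04, among them the shared subunits Polr1c at -0.35 (SE 0.10) and Polr1d at -0.26 (SE 0.10).

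The regulators did not share a direction. Of 15 genes of TOR signalling, 8 were under 0, 1 was lower and 6 were higher at an unadjusted p under 0.05, with a median of -0.03. Rictor, a subunit of the second TOR complex, had 0.72 (SE 0.21), the TOR inhibitor Tsc1 0.46 (SE 0.14) and Mtor itself 0.23 (SE 0.09). Larp1, the TOP-binding protein, measured 12.8, 14.8 and 18.2 FPKM in controls 1 to 3 and 19.3, 20.9 and 20.0 FPKM in diabetic rats 1 to 3, with no overlap and a log2 difference of 0.39 (SE 0.13). Of 11 genes that sense stalled or unassembled ribosomes, 4 were under 0, 0 were lower and 5 higher, with a median of 0.09, among them the kinases Eif2ak4 at 0.32 (SE 0.10) and Map3k20 at 0.55 (SE 0.20) and the helicase Ascc3 at 0.33 (SE 0.10). Of 8 chaperones and importers of ribosomal proteins, 4 were under 0, 1 was lower, Aamp at -0.25 (SE 0.07), and 1 higher, the importer Tnpo1 at 0.19 (SE 0.07). Of 5 tested genes of the Myc family, 2 were under 0 and 1 lower, the Max partner Mxd4 at -0.28 (SE 0.09). Myc, a known activator of ribosomal protein genes, measured 0.196, 0.0922 and 0.203 FPKM in controls 1 to 3 and 0.215, 0.439 and 0.275 FPKM in diabetic rats 1 to 3 and was under the filter. By limma, 0 genes of any of these lists passed the adjusted threshold, and the shares of all tested genes lower and higher at an unadjusted p under 0.05 are the 10.7% and 9.15% given above. All values of these lists are on the deposited scale, and none is given under another scaling. On the TPM scale the calls over all genes were 692 lower and 3009 higher, so directions in the lists may depend on the scale.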

How the data were processed

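Retinal poly-A RNA of 3 control and 3 diabetic rats was sequenced as read pairs from a kit for which the labels' protocols name no strand marking. The submitters' processing notes list the aligner HISAT2 2.0.5, with counter, genome build and annotation not given in the sources used here. Deposited by the authors was 1 table of FPKM covering all libraries, which per the file headers also holds gene length, coordinates, biotype and description. The denominator behind the FPKM is unknown. Values of FPKM times gene length lay within 0.05 of whole fragments in 100% of cases in each library, and fragments were rebuilt in this way. A floor of 3 fragments equals 0.158 to 0.248 FPKM for a gene of 1 kb, and it covers counting error only.

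The test was limma 3.58.1 (R 4.3.3) on log2(FPKM + 0.5) for the 16363 genes whose mean reached 0.5 FPKM. It used group alone as the model, eBayes with a trend on intensity, two-sided p-values and Benjamini-Hochberg adjustment over all tested genes, with a threshold of 0.05. A difference is on that log2 scale, which understates changes of low genes. Replicates are libraries whose labels give separate body weights. No pair of libraries of the same group agreed within sampling noise.

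The members and gene lists were chosen with earlier results of these data known. Named members were the 8 of highest mean, the 8 of smallest unadjusted p in each direction, those in paralog pairs, those varying over 8-fold inside a group and those under the filter. From each list the 3 of smallest p were taken, with Larp1, Mtor, Myc, Fau and Rack1. A few named by this rule are not reported here. Rplp0, Rpl4, Rpl5, Rpl11 and the entries set beside Rpl9, Rpl30, Rps27a, Rps29 and Rpl39 were chosen after their values were seen. Promoter sequences are RefSeq's, build GRCr8. Alternatives were pseudocounts of 0.1 and 1, a filter at 1 FPKM and none, TPM, quantile and gene length scalings, limma without a trend, voom on rebuilt fragments, restriction to protein-coding genes, a block on replicate number and omission of each library in turn. Summing entries of the same protein, paralogs included, and leaving out members over 8-fold were added after the data were seen.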

Additional observations from a re-analysis of the deposited data

How the results depend on the processing

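In every alternative run, 0 members passed the adjusted threshold, and the smallest adjusted p of any named member was 0.057. The members' median stayed under 0 throughout. Of 634 values of named members under alternatives, 622 kept their direction and side of the threshold and 12 changed sign.

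The count of members lower at an unadjusted p under 0.05, 48, became 24 with TPM (4.23% of all genes) and 22 with quantile normalization (8.71%), and ran from 20 to 64 when each library was left out (6.997% to 12.98% of all genes). The count without overlap, 47, became 22 with TPM and 23 with quantile normalization, and ran from 49 to 67 with a library left out, where fewer samples are compared. The 13.6% of all tested genes lower without overlap holds for the deposited scale with all 6 libraries. No such share is given for these runs, so their counts cannot be set against all genes. Quantile normalization brought the median to -0.17 over all members and to -0.15 over the large subunit. The large minus small difference became 0.068 with the length trend removed and 0.084 with quantile normalization, and ran from -0.014 to 0.083 with a library left out. The ratio difference of Rps10l1 against Rps10 ran from -0.87 to 0.31. Signs turned for Rpl12 with copies summed (-0.071), for Rpl13 (0.00035) and Rps10 (0.020) with quantile normalization, and with a library left out for Rpl7a (ENSRNOG00000047737) (-1.15 to 0.56), Rpl7a (ENSRNOG00000049097) (-0.25 to 1.20), Rps10l1 (-0.94 to 0.11) and Rps9 (-1.24 to 0.66). Beyond what the fewer samples and the scalings themselves do, the cause was not tested.

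The replicate numbers did not pair the libraries: the deviations of same-numbered libraries had correlations of -0.05, -0.08 and 0.00. With the replicate block, 39 members were lower at an unadjusted p under 0.05, where 9.15% of all genes were, and 0 passed the adjusted threshold.

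With 3 libraries per group, exact tests of a single ratio cannot go under p = 0.1. Entries of near-identical sequence limit what single members show, and members near 1 FPKM rest on few fragments.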
